A study of Homo sapiens with 24 samples.

Results

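The change in mRNA decay after knockdown of IGF2BP3 was taken from 12 of the 24 libraries of the series, namely all 6 libraries of cells given siIGF2BP3 and all 6 of cells given siControl. The cells were HepG2, an established human liver cancer line, transfected with siRNA and then treated with actinomycin D, which blocks transcription, for 0, 3 or 6 h, with 2 replicates for each siRNA and time. The siControl cells received the control siRNA, all groups shared the transfection and the drug, and the labels give no other alteration. The other 12 libraries, of cells given siIGF2BP1 or siIGF2BP2 at the same times, entered the shared estimate of spread and a comparison between knockdowns. Knockdown was by siRNA in a single cell line, so the targeted mRNA was lowered and not removed, and each transfected plate was reseeded to the plates of the time points. The labels do not say whether equal replicate numbers share a transfection, so p-values measure the spread between these libraries, which may be partly technical.

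IGF2BP3 belongs to the IGF2BP family of RNA-binding proteins, which carry RNA recognition motifs and KH domains, bind mostly the 3′ untranslated regions (3′UTRs) of mRNAs, and are best known for slowing the decay of m6A-marked transcripts. IGF2BP3 is an oncofetal member, low in adult liver and high in many tumours. In the study it was examined as a reader of internal m7G, a methylated guanosine within mRNA. When transcription is blocked, the level of each mRNA falls at the rate at which it is degraded, so a transcript that keeps more of its 0 h level in knockdown cells than in control cells has decayed more slowly there.

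The decay change of a gene was the log2 change from 0 to 6 h in siIGF2BP3 minus that in siControl, and a positive value means slower loss after knockdown. Each value was computed on a relative scale, on which libraries were matched by the trimmed mean of M-values (TMM) so that the typical gene has no change, and on a scale set by the sum of ERCC synthetic RNA reads. Levels are given as TMM-scaled CPM, read counts set to a common library total. On this scale a stable transcript rises over 6 h because the rest of the RNA falls. ERCC RNA was added in proportion to purified total RNA, so that scale follows mRNA per unit of total RNA and not per cell, and fewer cells and less RNA per cell cannot be told apart. Libraries held 31843248 to 74252042 gene reads. Replicates correlated at 0.997 to 0.998 (Pearson's r of log2 CPM, across genes). Their counts differed by more than sampling noise in every group (chi-square per degree of freedom 3.17 to 7.83), and none was a repeat of another. The HepG2 markers APOA1 and GPC3 were at 2376 to 3977 and at 1544 to 2438 CPM over the 12 libraries, without TMM scaling, while the blood and fibroblast markers PTPRC and COL1A2 reached at most 0.0181 CPM. COL1A1, also of the fibroblast list, reached 0.198 CPM. Of the endothelium list, PECAM1, CDH5 and VWF reached 1.375, 1.194 and 1.011 CPM, and KDR 0.0166 CPM. LYZ, of the blood list, stood at 1061 to 1915 CPM, and its part in the results was not tested.

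IGF2BP3 mRNA was lower in each siIGF2BP3 library than in any siControl library. It was at 102 and 98.9 at 0 h, 123 and 119 at 3 h and 134 and 142 at 6 h in siControl, and at 36 and 35.1 at 0 h, 33.9 and 33.1 at 3 h and 33.6 and 34.8 at 6 h in siIGF2BP3 (TMM-scaled CPM). Averaged over the 3 times the difference was -1.79 (SE 0.0266, edgeR adjusted p = 1.07e-35), on the log2 scale. The residual IGF2BP3 mRNA was itself among the transcripts with the clearest decay change. Relative to its 0 h mean it rose to 134% and 142% at 6 h in siControl and stayed at 94.5% and 97.7% in siIGF2BP3, a decay change of -0.53 (SE 0.0652, edgeR adjusted p = 8.55e-06) on the TMM scale and of -0.30 on the ERCC-sum scale (edgeR adjusted p = 0.153). The paralogs IGF2BP1 and IGF2BP2, which bind overlapping sets of mRNAs, had decay changes of 0.02 (SE 0.0424, edgeR adjusted p = 0.928) and -0.04 (SE 0.0528, edgeR adjusted p = 0.884). Each targeted mRNA had a negative decay change in its own knockdown, against the same control libraries. IGF2BP1 had -0.41 in siIGF2BP1 (edgeR adjusted p = 3.82e-07), and IGF2BP2 had -0.24 in siIGF2BP2 (edgeR adjusted p = 0.0321).

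Few transcripts had a decay change beyond the spread between libraries. Of 13136 genes tested on the TMM scale, 39 (0.297%) passed an adjusted p of 0.05 in edgeR's quasi-likelihood test, 24 (0.183%) with slower and 15 (0.114%) with faster relative loss in siIGF2BP3. At an unadjusted p under 0.05 there were 1133 genes (8.63%), 590 slower (4.49%) and 543 faster (4.13%). The median decay change of all genes was -0.01, the quartiles were -0.10 and 0.10, and the median SE was 0.126 (log2). By comparison, actinomycin D changed the relative level of 10387 genes (79.1%) over 6 h in siControl and of 10107 genes (76.9%) in siIGF2BP3, and 1234 genes (9.39%) differed in level between the conditions at 0 h. In data simulated at the depth and spread of these libraries, the same test called 98 of 100 genes given a decay change of 1 and 75 of 100 given 0.5 (log2). The changed genes were drawn from those with a mean CPM of at least 5, so these shares do not cover genes of lower level. In the real data 0 of the 2628 genes in the lowest quintile of mean CPM (0.235 to 3.07) were called. Smaller changes were not simulated.

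On the ERCC-sum scale nearly all called changes had 1 direction. There 195 genes passed (1.48%), 194 of them slower (1.48%) and 1 faster (0.00761%). The median decay change of all genes was 0.22 and 88.8% of genes were positive, so the scale moved the whole distribution. The median 0 to 6 h change on that scale was -0.88 in siControl and -0.65 in siIGF2BP3. This shift follows the ratio of gene reads to ERCC reads, which was 762 and 666 at 0 h and 505 and 471 at 6 h in siControl, and 740 and 775 at 0 h and 612 and 575 at 6 h in siIGF2BP3. The shift was 0.21 (log2). A two-sided exact permutation test over libraries gave p = 0.333 with 36 relabelings, in a design whose smallest possible p is 0.0556, so that no call at 0.05 could be made in either direction. The shift was 0.12 without siControl replicate 1 at 0 h and 0.30 without its replicate 2, the lowest and highest when 1 library was left out. All 24 slower genes of the TMM scale were among the 194, and of the 15 faster genes 0 were called on the ERCC-sum scale in edgeR. The 1 gene called faster there, NR3C2, had no read in either siIGF2BP3 library at 6 h and at most 0.687 CPM at 0 h in siControl, so no fold is given for it. Single genes are therefore described relative to the typical gene, with the ERCC-sum value where the direction depends on the scale.

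**Figure D1:**
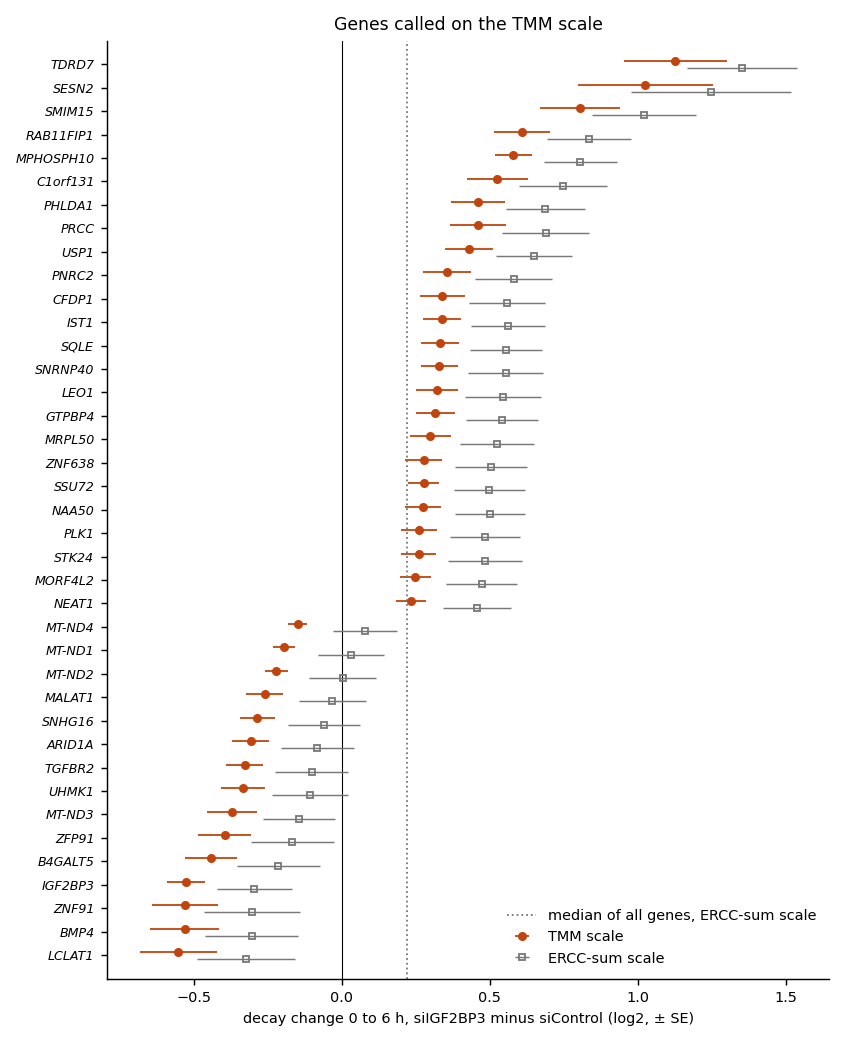
Decay change from 0 to 6 h, siIGF2BP3 minus siControl (log2, horizontal axis), of the 39 genes called on the TMM scale (filled circles) and of the same genes on the ERCC-sum scale (open squares), with bars of 1 SE. The 24 slower genes lie from 0.23 to 1.13 on the TMM scale, the 15 faster genes from -0.55 to -0.15, and the dotted line marks the median of all genes on the ERCC-sum scale, 0.22.

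Among the 24 transcripts with slower relative loss, MPHOSPH10 had the smallest p. It encodes a protein of the U3 small nucleolar ribonucleoprotein, which processes the precursor of 18S ribosomal RNA (gene at chr2:71130310-71150101, hg38). It is a short-lived mRNA, with CPM of 236 and 242 at 0 h, 91.4 and 89.5 at 3 h and 31 and 30.7 at 6 h in siControl. In siIGF2BP3 it was at 269 and 261 at 0 h, 126 and 129 at 3 h and 52.3 and 49.9 at 6 h. At 6 h it stood at 12.9% and 12.8% of the 0 h mean in siControl and at 19.7% and 18.8% in siIGF2BP3, without overlap, a decay change of 0.58 (SE 0.0624, edgeR adjusted p = 5.01e-07). GTPBP4, a GTPase needed for assembly of the large ribosomal subunit, kept 41.3% and 41.8% in siControl and 49.7% and 53.8% in siIGF2BP3, a decay change of 0.32 (SE 0.0659, edgeR adjusted p = 0.0161). MRPL50, a protein of the mitochondrial ribosome, changed by 0.30 (SE 0.0694, edgeR adjusted p = 0.0434), from 50.5% to 62.2% of 0 h.

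TDRD7 had the largest decay change. It encodes a Tudor domain protein of cytoplasmic RNA granules (chr9:97412096-97496125). Its CPM were 13.1 and 11.9 at 0 h, 7.43 and 7.41 at 3 h and 3.57 and 5.0 at 6 h in siControl and 16 and 19.6 at 0 h, 14.1 and 17.1 at 3 h and 12.3 and 14.2 at 6 h in siIGF2BP3. It fell to 28.6% and 39.99% of its 0 h mean in control cells but only to 68.9% and 79.8% in knockdown cells, a decay change of 1.13 (SE 0.175, edgeR adjusted p = 0.000548). Before the drug its level was also higher in siIGF2BP3, by 0.51 (SE 0.110, edgeR adjusted p = 0.00158). SMIM15, which encodes a small membrane protein, was at 15 and 16 at 0 h, 6.62 and 7.43 at 3 h and 3.66 and 3.11 at 6 h in siControl and at 33.1 and 37 at 0 h, 22.2 and 23.2 at 3 h and 13.9 and 12.8 at 6 h in siIGF2BP3. Its level was thus higher at every time, and it also fell less, to 39.7% and 36.4% against 23.6% and 20.03% (decay change 0.80, SE 0.135, edgeR adjusted p = 0.00213).

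RAB11FIP1 and IST1 act in membrane traffic. RAB11FIP1, an effector of the small GTPase RAB11 in endosome recycling, was at 43.2 and 41.9 at 0 h, 26.8 and 28.3 at 3 h and 16.5 and 14.3 at 6 h in siControl and at 53.1 and 55 at 0 h, 46 and 47.7 at 3 h and 31.6 and 28 at 6 h in siIGF2BP3. It kept 38.7% and 33.6% of 0 h in siControl against 58.4% and 51.9%, a decay change of 0.61 (SE 0.0943, edgeR adjusted p = 0.000548). IST1, a component of the ESCRT-III machinery that cuts membranes, changed by 0.34 (SE 0.0647, edgeR adjusted p = 0.00924), keeping 33.5% against 42.3%.

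USP1 and PLK1 act in DNA repair and in mitosis. USP1, the deubiquitinase that acts on FANCD2 and PCNA, was at 112 and 114 at 0 h, 55.7 and 55.8 at 3 h and 27.8 and 28.3 at 6 h in siControl and at 117 and 131 at 0 h, 63.9 and 70.4 at 3 h and 38.8 and 44.1 at 6 h in siIGF2BP3. It was higher in both knockdown libraries at each time, and at 6 h it was at 24.6% and 25.1% of 0 h in siControl and at 31.3% and 35.6% in siIGF2BP3 (decay change 0.43, SE 0.0813, edgeR adjusted p = 0.00905). PLK1, a mitotic kinase, changed by 0.26 (SE 0.0604, edgeR adjusted p = 0.0434), and it was higher in siIGF2BP3 at 0 h as well (281 and 281 against 243 and 242 CPM).

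Among stress and signalling transcripts were SESN2, a stress-induced sensor upstream of mTORC1, and PHLDA1, which is induced rapidly by growth signals. SESN2 was near the lower end of detection at 6 h, at 1.05 and 1.05 CPM in siControl and 1.73 and 1.90 in siIGF2BP3, having started at 18 and 19.2 CPM in siControl and 16.4 and 15.2 in siIGF2BP3. The decay change was 1.02 (SE 0.228, edgeR adjusted p = 0.031), all of it between 3 and 6 h (0.00 from 0 to 3 h and 1.02 from 3 to 6 h). PHLDA1 had fallen to 7.06% and 5.99% in siControl and to 8.77% and 9.28% in siIGF2BP3, a decay change of 0.46 (SE 0.0909, edgeR adjusted p = 0.0105). STK24, a kinase of the MST family, changed by 0.26 (edgeR adjusted p = 0.0376).

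A further group acts in the nucleus or on RNA. PRCC, a protein linked to splicing, kept 21% and 19.8% against 28.9% and 27.3% (decay change 0.46, SE 0.0943, edgeR adjusted p = 0.0146). PNRC2, which joins decapping to nonsense-mediated decay, kept 23% and 22.2% against 27.8% and 30.2% (0.35, SE 0.0822, edgeR adjusted p = 0.0434). SNRNP40 of the U5 small nuclear ribonucleoprotein changed by 0.33 and LEO1 of the PAF1 elongation complex by 0.32. SSU72, a phosphatase of the RNA polymerase II tail, changed by 0.28, MORF4L2, a subunit of histone acetyltransferase complexes, by 0.25, and the nuclear zinc finger protein ZNF638 by 0.28. CFDP1 changed by 0.34, and its level was already higher at 0 h in siIGF2BP3 (68.1 and 67.6 against 25 and 26.7 CPM). The same held for SSU72 (145 and 145 against 98.4 and 101 CPM at 0 h) and for NAA50, an N-terminal acetyltransferase (212 and 217 against 142 and 137 CPM), whose decay change was 0.27. C1orf131 changed by 0.53 (SE 0.103, edgeR adjusted p = 0.0105), and SQLE, the squalene epoxidase of cholesterol synthesis, by 0.33 (SE 0.0646, edgeR adjusted p = 0.0104). The long noncoding RNA NEAT1, the scaffold of paraspeckles, rose over time in both conditions, to 407% and 422% of 0 h in siControl and 486% and 489% in siIGF2BP3, a decay change of 0.23 (SE 0.0514, edgeR adjusted p = 0.0281). In siControl at 6 h the summed cytosolic ribosomal protein mRNAs reached 186.1% and 188.7% on this scale, and 106.2% and 99.0% per ERCC read. The rise of NEAT1 exceeded theirs, so its value compares gains in level and is not a measure of decay.

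**Figure D2:**
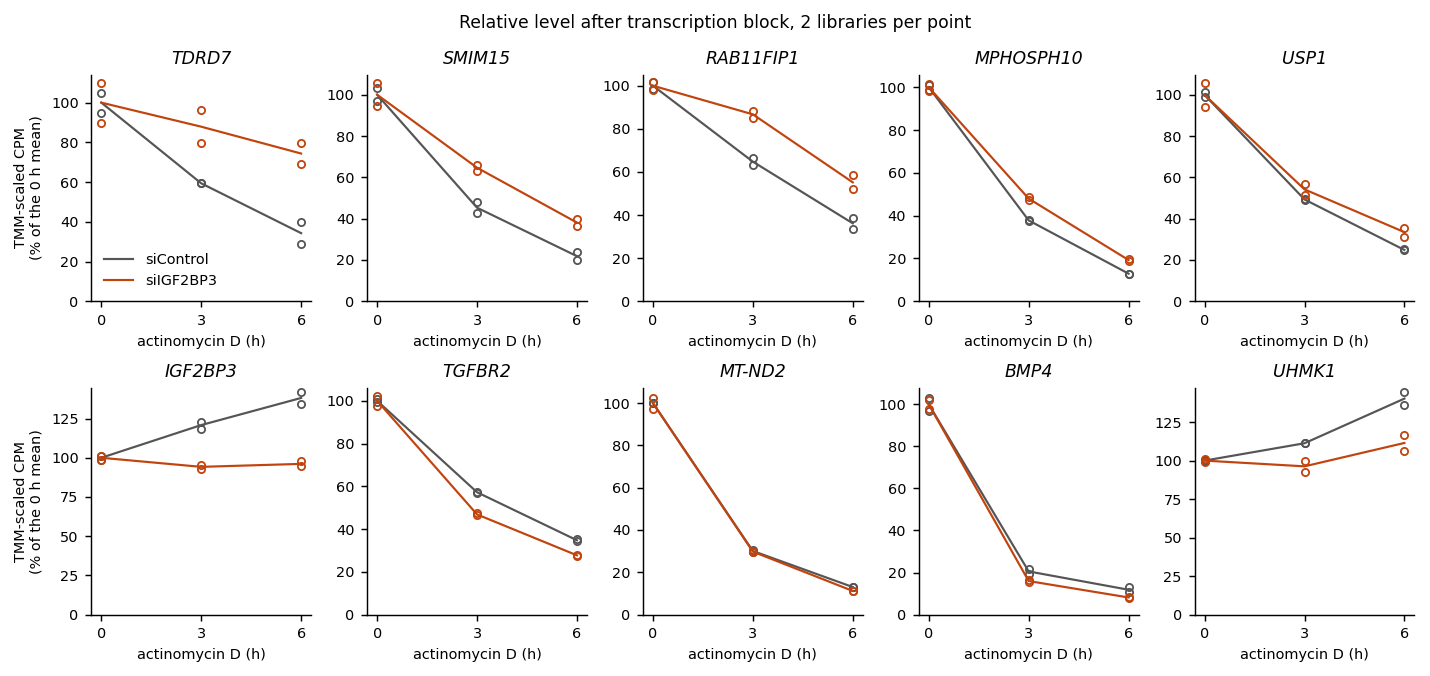
TMM-scaled CPM as a percentage of the mean at 0 h (vertical axis) against hours of actinomycin D (horizontal axis) for 5 genes with slower and 5 with faster relative loss, with each library as an open circle and lines through the means of 2 libraries, siControl in grey and siIGF2BP3 in orange. TDRD7, SMIM15, RAB11FIP1, MPHOSPH10 and USP1 stay above the control at 6 h, and IGF2BP3, TGFBR2, MT-ND2, BMP4 and UHMK1 lie under it.

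Of the 15 transcripts with faster relative loss, 2 belong to TGF-beta family signalling, a grouping made after the calls were known. The share of such genes among all genes was not counted. TGFBR2, the type II TGF-beta receptor (chr3:30606601-30694142), was at 211 and 214 at 0 h, 121 and 122 at 3 h and 74.6 and 73 at 6 h in siControl and at 172 and 164 at 0 h, 78 and 79.7 at 3 h and 46.5 and 46.8 at 6 h in siIGF2BP3, lower at each time. It kept 35.1% and 34.4% of 0 h in siControl and 27.6% and 27.8% in siIGF2BP3, a decay change of -0.33 (SE 0.0616, edgeR adjusted p = 0.00905). BMP4, a secreted ligand of this family, was at 72.5 and 77.2 at 0 h, 16.2 and 14.5 at 3 h and 7.93 and 9.72 at 6 h in siControl and at 79 and 75.8 at 0 h, 12.6 and 12.1 at 3 h and 6.47 and 6.09 at 6 h in siIGF2BP3. It started at like levels and fell to 10.6% and 13% of 0 h in siControl and to 8.36% and 7.87% in siIGF2BP3, a decay change of -0.53 (SE 0.117, edgeR adjusted p = 0.0281). On the ERCC-sum scale the values of these genes were -0.10 and -0.30, with the same sign and not called.

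LCLAT1, an acyltransferase of cardiolipin remodelling, had the most negative decay change, -0.55 (SE 0.130, edgeR adjusted p = 0.0474), keeping 42.4% and 43.7% of 0 h in siControl and 28% and 30.9% in siIGF2BP3. B4GALT5, the galactosyltransferase that makes lactosylceramide, changed by -0.44 (SE 0.0881, edgeR adjusted p = 0.0113). ZNF91, a KRAB zinc finger repressor of retrotransposons, changed by -0.53 (SE 0.111, edgeR adjusted p = 0.0161), after a higher start in siIGF2BP3 (25 and 25 against 16.9 and 17.1 CPM). It is one of a family of near-identical genes whose reads the counting could have split. ZFP91, an E3 ubiquitin ligase, changed by -0.40 (SE 0.0887, edgeR adjusted p = 0.0312). ARID1A, a subunit of the BAF chromatin remodelling complex, kept 29.7% and 29.4% against 24.6% and 23.2% (-0.31, SE 0.0631, edgeR adjusted p = 0.0146). UHMK1, a kinase of splicing factors, was a stable transcript that rose to 136% and 145% of 0 h in siControl but only to 106% and 117% in siIGF2BP3 (-0.33, SE 0.0734, edgeR adjusted p = 0.0281).

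The noncoding RNAs SNHG16, a host of small nucleolar RNAs, and MALAT1, an abundant RNA of nuclear speckles, had negative decay changes as well. MALAT1 rose to 188% and 216% of 0 h in siControl and to 167% and 170.2% in siIGF2BP3, a decay change of -0.26 (SE 0.0613, edgeR adjusted p = 0.0474). Its rise in siControl was near or above that of the summed ribosomal protein mRNAs (186.1% and 188.7%). As for NEAT1, its value thus compares gains in level and is not a measure of decay. SNHG16 reached 119.7% and 121% in siControl and 99.4% and 98.1% in siIGF2BP3 (-0.29, SE 0.0587, edgeR adjusted p = 0.0146). NEAT1 and MALAT1, neighbours on chromosome 11, thus had opposite signs on the TMM scale. On the ERCC-sum scale MALAT1 was at -0.03 and NEAT1 at 0.46.

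The clearest gene class with faster relative loss was the mRNAs encoded by the mitochondrial genome, which are transcribed and degraded inside the organelle. Of the 13, 12 had a negative decay change and 4 were called. These 4 were subunits of complex I (NADH dehydrogenase), the complex with the most members among the 13. There were 9 faster and 0 slower at an unadjusted p under 0.05. Of all genes 0.114% were called faster, and 4.13% were faster and 4.49% slower at that unadjusted p. The median was -0.14, against -0.01 for all genes. Against the same siControl libraries it was -0.05 in siIGF2BP1 and -0.23 in siIGF2BP2. For siIGF2BP3 against the mean of those knockdowns it was 0.01 (all genes 0.01), so the shift was not shown to be particular to siIGF2BP3. MT-ND2 was at 3058 and 3047 at 0 h, 933 and 901 at 3 h and 398 and 396 at 6 h in siControl and at 3117 and 3286 at 0 h, 949.9 and 955 at 3 h and 355 and 359 at 6 h in siIGF2BP3. The conditions were alike at 3 h, and at 6 h both knockdown libraries were lower (decay change -0.22, SE 0.0394, edgeR adjusted p = 0.00461). MT-ND1 changed by -0.19 (SE 0.0374, edgeR adjusted p = 0.00924), MT-ND4 by -0.15 (SE 0.0305, edgeR adjusted p = 0.0146) and MT-ND3 by -0.37 (SE 0.0831, edgeR adjusted p = 0.0312). MT-CO1, a subunit of complex IV, was at 11036 and 11285 CPM at 6 h in siControl and at 10479 and 10131 in siIGF2BP3 (-0.12, SE 0.0290, edgeR adjusted p = 0.0766). The light-strand transcript MT-ND6 was the 1 with a positive value (0.14, edgeR adjusted p = 0.78). Summed over the 13, the level at 6 h was 65.7% and 66.9% of 0 h in siControl and 61.0% and 60.3% in siIGF2BP3. On the ERCC-sum scale the sums were 37.5% and 35.1% in siControl and 40.5% and 37.2% in siIGF2BP3. There the decay changes of MT-ND1, MT-ND2 and MT-ND4 were 0.03, 0.0029 and 0.08, opposite in sign, and the class lay 0.13 (log2) under the median of all genes. The faster loss of these mRNAs therefore holds relative to the typical gene, and it is not a faster loss per ERCC read. The nuclear genome holds near-identical copies of mitochondrial genes, so reads could be split between them.

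The 0 to 6 h change was also divided into windows of 0 to 3 h and 3 to 6 h. From 0 to 3 h, 8 genes were called (0.0609%), and from 3 to 6 h, 5 (0.0381%). MPHOSPH10 was called in the first window, at 0.34 (SE 0.0568, edgeR adjusted p = 0.00737), and had 0.24 from 3 to 6 h. NEAT1 had 0.29 and -0.05, and TGFBR2 -0.29 and -0.04, in the first and second window. The difference between windows was not tested. IGF2BP3 itself changed by -0.36 and -0.17. Also called in the first window, and named after their values were seen, were THBS1, an extracellular matrix protein (-0.33, SE 0.0626, edgeR adjusted p = 0.0151), MBD2, a reader of methylated DNA (0.35, SE 0.0641, edgeR adjusted p = 0.013), and ZNF503, a transcriptional repressor (1.53, SE 0.311, edgeR adjusted p = 0.032). ZNF503 was at 0.554 and 0.304 CPM at 3 h in siControl and 1.11 and 1.37 in siIGF2BP3, having started at 19.1 and 19.6 CPM in siControl and 18.1 and 20.8 in siIGF2BP3.

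In the later window C1orf131 was the 1 gene called with a positive value (0.53, SE 0.107, edgeR adjusted p = 0.0458). Those called with a negative value were ARID1A (-0.34, SE 0.0662, edgeR adjusted p = 0.0359), MT-ND2 (-0.21, SE 0.0396, edgeR adjusted p = 0.0359), MT-CO1 (-0.17, SE 0.0290, edgeR adjusted p = 0.0129) and IGF2 (-0.28, SE 0.0558, edgeR adjusted p = 0.0429). IGF2 encodes the insulin-like growth factor after whose mRNA the IGF2BP family is named. It was at 767 and 777 at 0 h, 1183 and 1223 at 3 h and 1695 and 1555 at 6 h in siControl and at 864 and 853 at 0 h, 1489 and 1301 at 3 h and 1595 and 1507 at 6 h in siIGF2BP3. Its level thus rose in both conditions, so its value compares gains in level, as for NEAT1, and is not a measure of decay. Over 0 to 6 h its decay change was -0.22 (SE 0.0558, edgeR adjusted p = 0.0939) on the TMM scale and 0.0044 on the ERCC-sum scale. The 3 h libraries enter the 2 windows with opposite signs, and they enter the 0 to 6 h change only through the estimate of spread. With the 12 libraries alone 0 genes were called in either window in edgeR, with 764 and 814 at an unadjusted p under 0.05, while DESeq2 on all libraries called 20 and 24.

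Cells given siIGF2BP1 or siIGF2BP2 were compared with the same siControl libraries, so their decay changes are not independent of those for siIGF2BP3, and the values are set side by side. TDRD7 had decay changes of 1.13 in siIGF2BP3, 1.19 in siIGF2BP1 and 0.99 in siIGF2BP2. For SMIM15 they were 0.80, 0.83 and 0.70, and for RAB11FIP1 0.61, 0.52 and 0.41, in the same order. MPHOSPH10 had 0.58, -0.0030 and 0.45, so its value was close to 0 in siIGF2BP1. SESN2 had 1.02, 0.17 and 0.23. TGFBR2 had -0.33, 0.14 and -0.07, and BMP4 -0.53, -0.38 and 0.04. The class of mitochondrially encoded mRNAs had medians of -0.14, -0.05 and -0.23 (log2).

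**Figure D3:**
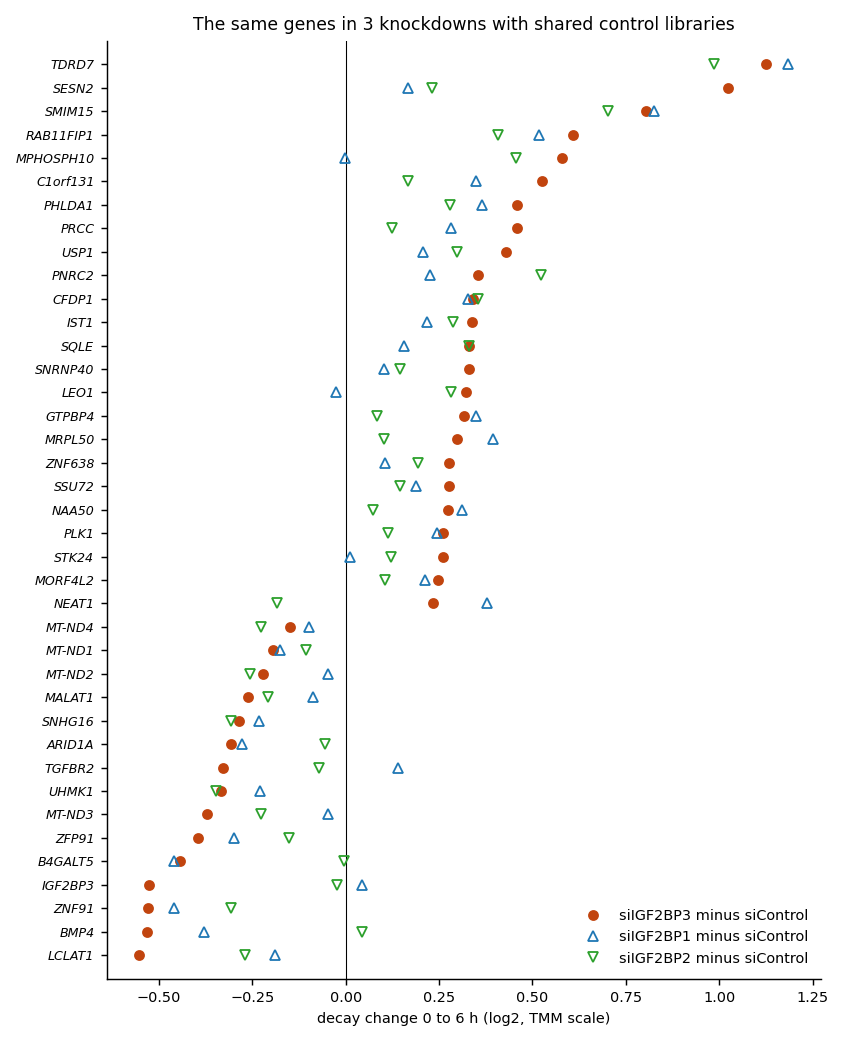
Decay change from 0 to 6 h against siControl (log2, TMM scale, horizontal axis) of the 39 genes called for siIGF2BP3 (filled circles), with the values of the same genes in siIGF2BP1 (upward triangles) and siIGF2BP2 (downward triangles). All 3 series share the siControl libraries. SMIM15 and TDRD7 lie far to the right in all of them, while MPHOSPH10 is near 0 in siIGF2BP1 and IGF2BP3 is near 0 in both other knockdowns.

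Which changes set siIGF2BP3 apart was tested without the siControl libraries, as the 0 to 6 h change in siIGF2BP3 minus the mean of those in siIGF2BP1 and siIGF2BP2. In edgeR 17 genes passed (0.129%), 13 higher (0.099%) and 4 lower (0.0305%). The reference is a mean, so a gene can pass through the value of a single other knockdown. MPHOSPH10 was higher, by 0.35 (SE 0.0544, edgeR adjusted p = 0.000614). Its decay change against siControl was clearly positive in siIGF2BP2 too, and the value in siIGF2BP1, given above, lowers that mean. TGFBR2 was lower, at -0.36 (SE 0.0550, edgeR adjusted p = 0.000614) and IGF2BP3 at -0.54 (SE 0.0587, edgeR adjusted p = 7.77e-07). SEMA7A, a membrane-anchored semaphorin, had the most negative value, -0.64 (SE 0.118, edgeR adjusted p = 0.00535). It fell to 53.3% and 47.8% of 0 h in siIGF2BP3 and to 69.5% and 72.2% in siControl (decay change -0.48, edgeR adjusted p = 0.137). The fourth was MGAT5, an N-glycan branching enzyme (-0.26, SE 0.0547, edgeR adjusted p = 0.0343).

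For some of the 13 higher genes the value against siControl was large in another knockdown and small in siIGF2BP3. CENPB, a centromere protein, was higher by 0.51 (SE 0.0791, edgeR adjusted p = 0.000633), with decay changes against siControl of 0.05 in siIGF2BP3, -0.89 in siIGF2BP1 and -0.02 in siIGF2BP2. IGF2BP1 was higher by 0.20 (SE 0.0374, edgeR adjusted p = 0.00535), and its value of -0.41 in its own knockdown enters that mean. SPART (0.47), PPP2CA (0.31), BUB3 (0.25) and BCL2L1 (0.23) were higher too, with decay changes against siControl of 0.25, 0.26, 0.20 and 0.17 that were not called. TDRD7 (0.04, edgeR adjusted p = 0.984) and SMIM15 (0.04, edgeR adjusted p = 0.978) did not pass this test.

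Gene classes were described with 40 lists. In 25 of them no member was called on the TMM scale, and 31 had a median within 0.05 (log2) of that of all genes. Of all genes 0.297% were called, so 0 called in lists of these sizes says little about their members. Factors of ribosome production lay on the slower side. Of 111 tested, 78 had a positive decay change (70.3%, all genes 48.4%). Among them 2 were called slower (all genes 0.183%) and 0 of the 111 faster (all genes 0.114%). At an unadjusted p under 0.05, 15 were slower (13.5%, all genes 4.49%) and 1 faster (0.901%, all genes 4.13%). The list was chosen with earlier results of these data known. The median was 0.05, and on the ERCC-sum scale 7 were called slower (all genes 1.48%). The medians were -0.04 from 0 to 3 h and 0.11 from 3 to 6 h. These are transcripts of moderate stability (median 0 to 6 h change -0.33 in siControl and -0.20 in siIGF2BP3). Their summed level at 6 h was 100.1% and 100.7% of 0 h in siControl and 101.2% and 106.2% in siIGF2BP3. Against the same siControl libraries, their median decay change was 0.05 in siIGF2BP1 and -0.01 in siIGF2BP2. For siIGF2BP3 against the mean of those knockdowns it was 0.03 (all genes 0.01).

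Cytosolic ribosomal protein mRNAs, among the most stable in the cell, lay on the other side by a small amount. Of 79, only 9 had a positive decay change and the median was -0.06, with 0 called (all genes 0.297%). At an unadjusted p under 0.05, 12 were faster (15.2%, all genes 4.13%) and 0 slower (all genes 4.49%). RPL13A rose to 202% and 188% of 0 h in siControl and 188% and 177% in siIGF2BP3 (-0.10, edgeR adjusted p = 0.534), and RPLP0 changed by -0.05. The summed level at 6 h was 186.1% and 188.7% of 0 h in siControl and 176.7% and 183.2% in siIGF2BP3. Nuclear-encoded subunits of the respiratory chain (76 genes) had a median of -0.05. Plasma protein and apolipoprotein mRNAs, the main products of liver cells, had -0.04, with 14 of 69 positive and 7 faster at an unadjusted p under 0.05 (10.1%, all genes 4.13%). Solute carriers (201 genes) had -0.07 and drug-metabolizing enzymes (55 genes) -0.07, with 0 called in either (all genes 0.297%). AFP changed by -0.06, APOB by -0.02 and ALDH1A1 by -0.05. Against the same siControl libraries, the ribosomal protein medians were -0.05 in siIGF2BP1 and -0.04 in siIGF2BP2. Those of plasma proteins were -0.04 and -0.05, and of solute carriers -0.06 and -0.07. Respiratory chain subunits had -0.03 and -0.04, and drug-metabolizing enzymes -0.03 and -0.08. For siIGF2BP3 against the mean of those knockdowns, these 5 medians were -0.01, -0.0031, -0.01, -0.01 and -0.02, so the shifts were largely shared. On the ERCC-sum scale the medians of all lists moved up with the shift of 0.22, so that the ribosomal protein mRNAs had a positive median (0.17), and relative to the median of all genes they lay at -0.05, the ribosome production factors at 0.06 and the mitochondrially encoded mRNAs at -0.13. With single libraries left out on the TMM scale, these distances ran from -0.08 to -0.02, from 0.01 to 0.10 and from -0.17 to -0.11.

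On the slower side, immediate early transcription factors, whose mRNAs are among the shortest-lived (median 0 to 6 h change -3.55 in siControl), had a median of 0.09 with quartiles of -0.13 and 0.27 and 0 called (all genes 0.297%). Its distance from all genes, 0.10, became -0.05 without siControl replicate 2 at 6 h and 0.25 without replicate 1, so that its direction rests on these libraries. HECT and cullin ubiquitin ligases (46 genes) had a median of 0.07, with 0 called (all genes 0.297%). At an unadjusted p under 0.05 there were 6 slower (13.04%, all genes 4.49%) and 2 faster (4.35%, all genes 4.13%). Histone methyltransferases and demethylases (50 genes) had 0.05, with 0 called (all genes 0.297%). In siIGF2BP1 and siIGF2BP2, against the same siControl libraries, the ligases had medians of 0.03 and 0.01. The histone enzymes had 0.07 and 0.02 there, and the immediate early factors -0.04 and 0.19. For siIGF2BP3 against the mean of those knockdowns, the median of the ligases was 0.03 (all genes 0.01). The histone enzymes had -0.01 and the immediate early factors -0.06 in that comparison, so a slower class particular to siIGF2BP3 was not shown. The 29 classic IGF2BP client mRNAs that were tested, among them ACTB (-0.05), HSP90AA1 (-0.04) and PEG10 (0.02), had a median of -0.04. Of these 29, 8 were positive (27.6%, all genes 48.4%) and 0 called (all genes 0.297%). At an unadjusted p under 0.05, 1 was slower (3.45%, all genes 4.49%) and 3 faster (10.3%, all genes 4.13%). Of 20 transcripts named by the study, IGF2BP3 was the 1 called, and the median was 0.03. HUWE1 had 0.03 (SE 0.0428, edgeR adjusted p = 0.879), CYRIB 0.04 (SE 0.0699, edgeR adjusted p = 0.909) and NDRG1 0.03 (SE 0.156, edgeR adjusted p = 0.972). The study chose that list on these samples, so it is not independent evidence of a direction. Regulators of m7G and m6A (35 genes) had a median of 0.01, with METTL3 at 0.14, METTL1 at -0.17 and WDR4 at 0.04.

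**Figure D4:**
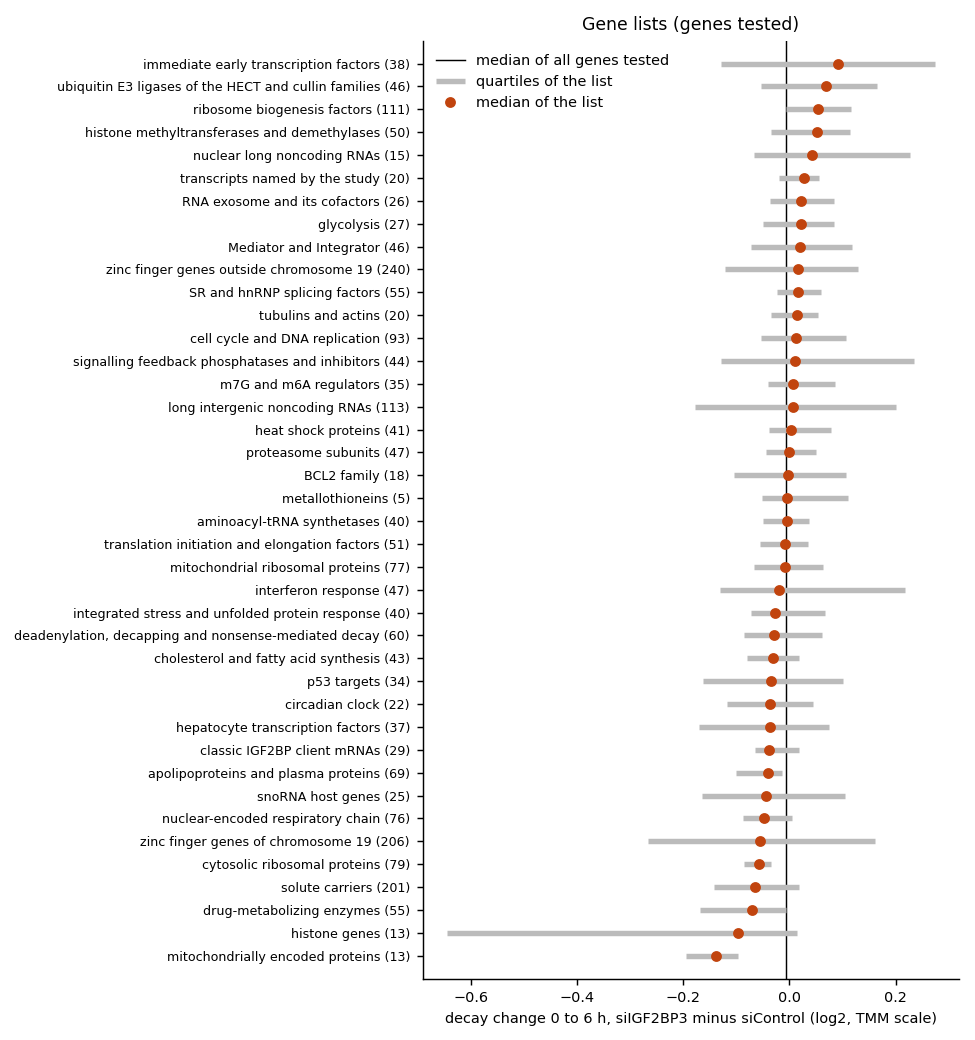
Median (circle) and quartiles (grey bar) of the decay change from 0 to 6 h (log2, TMM scale, horizontal axis) for the 40 gene lists, with the number of genes tested in brackets and the median of all genes as a vertical line. Mitochondrially encoded mRNAs lie lowest at -0.14 and immediate early transcription factors highest at 0.09 (under the median of all genes without siControl replicate 2 at 6 h), and the quartiles of most lists span the median of all genes.

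Across the whole transcriptome, the decay change was related to how stable a transcript was. Genes were grouped into quintiles by their 0 to 6 h change in siIGF2BP1 and siIGF2BP2, libraries outside the contrast, but transcripts that differ in stability also differ in length, base composition and depth. The fastest-decaying quintile (median change in siControl -1.91) had a median decay change of 0.03, with 53.7% of genes positive. The most stable quintile (median change in siControl 0.75) had -0.04, with 34.9% positive. Against the same siControl libraries, the medians of these quintiles were 0.01 and -0.02 in siIGF2BP1 and 0.03 and -0.04 in siIGF2BP2. For siIGF2BP3 against the mean of those knockdowns, without siControl, they were 0.01 and -0.01. The libraries of those knockdowns also set the quintiles. The trend was thus not shown to be particular to siIGF2BP3. In the fastest quintile 7.0% of genes were slower and 4.79% faster at an unadjusted p under 0.05, and in the most stable quintile 1.56% and 6.13%. Of the 24 slower genes, 11 belong to the fastest-decaying quintile, and so do 8 of the 15 faster genes.

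Structure of the canonical transcript went with smaller differences. The quintile of coding genes with the shortest coding sequence (75 to 771 bases) had a median of -0.03, and the longest (2526 to 26391 bases) had 0.01. Genes with 17 or more exons had 0.01, and the quintile richest in G and C (58.2% or more) had -0.03. Processed pseudogenes stood apart, with a median of 0.20 and 69.5% of 279 positive, but 0 were called (all genes 0.297%). At an unadjusted p under 0.05 there were 22 slower (7.89%, all genes 4.49%) and 1 faster (0.358%, all genes 4.13%). Their medians in siIGF2BP1 and siIGF2BP2, against the same controls, were 0.15 and 0.22. These intronless gene copies share reads with their parent genes, so their counts are uncertain.

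**Figure D5:**
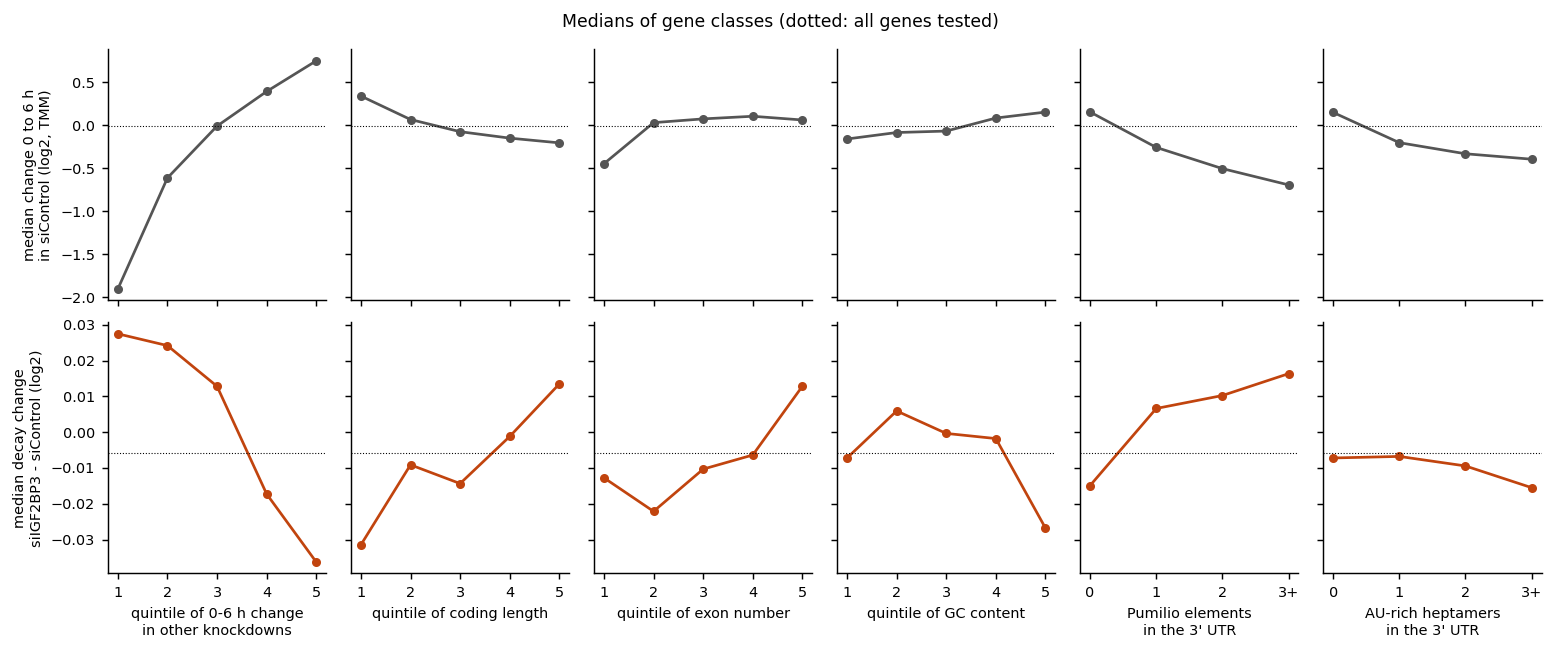
Median 0 to 6 h change in siControl (top row) and median decay change (bottom row), both log2 on the TMM scale, for quintiles of genes by 0 to 6 h change in the other knockdowns, coding length, number of exons and percentage of G and C, and for genes with 0, 1, 2 and 3 or more Pumilio elements or AU-rich heptamers in the 3′UTR. The dotted line is the median of all genes. The bottom row stays within 0.04 of 0 while the top row spans -1.91 to 0.75.

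Short words in the 3′UTR of the canonical transcript were counted because Pumilio proteins and AU-rich element binding proteins shorten mRNA life through them. The choice of words was made after the called genes were known. The words were searched on the transcript strand only, each on its own, so that a base may lie in matches of more than 1 word, and a match is a description of the sequence and not a site of binding. TGTANATA, the Pumilio element, occurred in 29.8% of 11361 genes with a 3′UTR, in 10 of 23 called slower (43.5%) and in 6 of 9 called faster (66.7%). Relative decay was faster with more copies, with median 0 to 6 h changes in siControl of 0.15, -0.26, -0.51 and -0.69 for 0, 1, 2 and 3 or more. The medians of the decay change moved little, -0.01, 0.01, 0.01 and 0.02, with 45.3%, 51.9%, 52.7% and 54.8% of genes positive. TATTTAT, the AU-rich heptamer, occurred in 35.3% of genes, in 5 of 23 called slower and in 7 of 9 called faster, and the median decay change was -0.01, -0.01, -0.01 and -0.02 for 0, 1, 2 and 3 or more copies. Longer 3′UTRs can hold more copies of a word, and relative decay in siControl was also faster with 3′UTR length. By quintile of length, from shortest to longest, the median 0 to 6 h changes were 0.35, 0.14, -0.05, -0.16 and -0.27. Length was not separated from the words, in these trends or in the shares of called genes. CTACCTC, the match to the seed of the let-7 microRNAs, whose sites IGF2BP proteins are known to shield, occurred in 11.1% of genes, in 1 of 23 called slower and in 1 of 9 called faster. It pairs with bases 2 to 8, in capitals, of the mature let-7a (RefSeq, GRCh38.p14).
hsa-let-7a-5p: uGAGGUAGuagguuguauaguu

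Pumilio elements occurred in called genes of both directions, so that the word alone does not give the direction. To show this, 1 element each is printed for 5 of the slower and 3 of the faster transcripts that hold the word, a selection made after their values were seen. Each line has 20 bases of the 3′UTR in the direction of the transcript (hg38, GENCODE v44 annotation), with the element in capitals, and the first 5 are slower.
MPHOSPH10, chr2:71150026-71150045, plus strand: atataaTGTAAATAttaatg
USP1, chr1:62450995-62451014, plus strand: tccttgTGTATATAttaaac
PNRC2, chr1:23962640-23962659, plus strand: gagccaTGTAAATAtctgta
MRPL50, chr9:101389147-101389166, minus strand: atagaaTGTAAATAgtattt
IST1, chr16:71928906-71928925, plus strand: tataccTGTACATActtgtt
TGFBR2, chr3:30691877-30691896, plus strand: aatgccTGTATATAaatatg
LCLAT1, chr2:30640814-30640833, plus strand: atactgTGTACATAgcaggg
ARID1A, chr1:26781604-26781623, plus strand: cacgtgTGTATATAtatgac
The element of MPHOSPH10 lies in a 3′UTR of only 86 bases, and that mRNA fell to 12.9% of 0 h at 6 h in siControl. MRPL50 has 10 elements and kept 50.5%. TGFBR2, with 1 element, kept 34.8% in siControl and 27.7% in siIGF2BP3.

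How firmly single genes were called depended on the libraries. MPHOSPH10 and TDRD7 passed under each of 21 alternative settings. RAB11FIP1, SMIM15 and IGF2BP3 passed under 20, TGFBR2, MT-ND2 and SSU72 under 18, and at the other end MALAT1 passed under 6, LCLAT1 under 7 and SESN2 under 9. BMP4 passed under 11. Fitted on the 12 siIGF2BP3 and siControl libraries alone, with 6 residual degrees of freedom, 8 genes passed, namely MPHOSPH10, TDRD7, SMIM15, RAB11FIP1, IGF2BP3, TGFBR2, MT-ND1 and MT-ND2. The number of calls fell to 16 and 13 without siControl replicate 1 or 2 at 0 h and to 13 and 15 without siIGF2BP3 replicate 1 or 2 at 0 h, and rose to 59 without siControl replicate 2 at 6 h. Without siIGF2BP3 replicate 2 at 6 h, 37 genes passed, of which 11 were slower and 26 faster, and 17 were among the 39.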

How the data were processed

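RNA-seq was done on HepG2 cells given siControl, siIGF2BP1, siIGF2BP2 or siIGF2BP3 and actinomycin D for 0, 3 or 6 h, with ERCC RNA added to the purified RNA. The authors trimmed reads with Trimmomatic 0.39, aligned them to hg38 with HISAT2 2.1.0 and deposited raw HTSeq counts per gene of GENCODE v29, counted by strand. How reads of overlapping or repeated genes were counted is not given in the sources used here. Of the rows, 5 that name no gene held 13.6% to 17.1% of reads, and 45 copies of the pseudoautosomal region were left out. METTL1 knockdown libraries were not analysed here.

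Counts were fitted in edgeR 4.0.16 (R 4.3.3) by quasi-likelihood with 12 group means over 24 libraries (12 residual degrees of freedom), on genes with at least 1 CPM in 2 libraries, with TMM factors or with ERCC sums as library sizes. P-values were adjusted by the Benjamini-Hochberg method over all genes tested, with 0.05 as the threshold, and all tests were two-sided. Total gene counts of 31843248 to 74252042 per library bound the counting error. Alternatives were DESeq2 1.42.0, total library size, other filters, a replicate block, the 12 libraries alone, a slope over time and leaving out each library. The test was checked on simulated data.

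Named genes were the 12 with the largest decay change each way among those called with a mean CPM of at least 5 and the same sign in all 16 choices of 1 library per group, the IGF2BP genes and transcripts named by the study, and from each list up to 4 called members or, with none, the 2 of highest CPM. The other called genes fall outside this rule and were named after their values were seen. The members and lists were chosen with earlier results of these data known. Positions and 3′UTRs are of the Ensembl canonical transcript in GENCODE v44 (hg38), which matched 58207 gene identifiers. The result of 1 gene called from 0 to 3 h is not reported here.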

Additional observations from a re-analysis of the deposited data

Results flagged for a closer look

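The change from 0 to 6 h differed between siIGF2BP3 and siControl for 39 genes, by a test of the difference itself in edgeR on the TMM scale. It differed between siIGF2BP3 and the mean of siIGF2BP1 and siIGF2BP2 for 17 genes. Of the 39, 3 were also among the 17, namely MPHOSPH10 (0.35, log2), IGF2BP3 (-0.54) and TGFBR2 (-0.36), where the values are those against the other knockdowns. The siIGF2BP3 libraries enter both comparisons. For MPHOSPH10 the value in siIGF2BP1 lowers the mean of the other knockdowns, while its decay change in siIGF2BP2 was positive as in siIGF2BP3.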

How the results depend on the processing

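The decay change from 0 to 6 h kept its sign in each alternative for each called gene, except that on the ERCC-sum scale MT-ND1 (0.031), MT-ND2 (0.0029) and MT-ND4 (0.078) were positive. On the TMM scale the 39 calls (61.5% slower) became 78 with DESeq2, 62 (79.0% slower) by library size, 195 (99.5% slower) by the ERCC sum, 67 with no filter, 8 with the 12 libraries alone and 3 as a slope over time. Leaving out single libraries gave 13 to 59. On the ERCC-sum scale the 195 calls became 588 with DESeq2, 62 by library size, 39 by TMM, 60 with no filter, 58 with the 12 libraries alone and 3 as a slope, and 15 (without siIGF2BP3 replicate 1 at 0 h) to 3147 (without siControl replicate 2 at 0 h) with single libraries left out. That scale also gave 16 without siControl replicate 1 at 0 h, 620 without siControl replicate 1 at 6 h, 48 without its replicate 2, 97 without siIGF2BP3 replicate 2 at 0 h, and 33 and 351 without siIGF2BP3 replicate 1 or 2 at 6 h.

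From 0 to 3 h the 8 calls became 20 with DESeq2, 16 by library size, 37 with no filter, 0 with the 12 libraries alone (edgeR, 764 at an unadjusted p under 0.05), and 0 to 18 with single libraries left out, 0 without siControl replicate 2 at 0 h (edgeR, 886 unadjusted) or at 3 h (934 unadjusted). From 3 to 6 h the 5 calls became 24 with DESeq2, 3 by library size, 3 (all slower) by the ERCC sum, 24 with no filter, 0 with the 12 libraries alone (edgeR, 814 unadjusted), and 0 to 30 with single libraries left out, 0 without siControl replicate 1 or 2 (edgeR, 894 and 1036 unadjusted) or siIGF2BP3 replicate 1 (939 unadjusted) at 3 h. Against the other knockdowns the 17 calls became 49 with DESeq2, 4 by the ERCC sum and 30 with no filter, and 8 to 31 with single libraries left out, 8 without siIGF2BP3 replicate 1 and 11 without its replicate 2 at 0 h, and 26 without either siControl library at 6 h, 29 without either siIGF2BP3 library at 3 h and 31 without siIGF2BP3 replicate 2 at 6 h. The level difference at 0 h, 1234 genes, became 471 by the ERCC sum and 586 to 1353 with single libraries left out, 586 and 765 without siControl replicate 1 or 2 and 742 and 687 without siIGF2BP3 replicate 1 or 2 at 0 h. Apart from settings that use fewer libraries or test other genes, the cause was not tested.

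Deviations of libraries with the same replicate number correlated at 0.18 to 0.24 between the siIGF2BP3 times, at -0.0085 to 0.032 between the siControl times and at -0.063 to 0.29 between the conditions. Since not every pair passed 0.1, the numbers were not taken to pair the libraries, though those of siIGF2BP3 deviated together. With a replicate block, 45 genes were called from 0 to 6 h, 141 on the ERCC-sum scale, 11 and 5 in the windows, and 26 against the other knockdowns. With the replicate block within condition the counts were 80, 795, 19, 32 and 41. All 39 genes remained called under both. In simulated data 75 of 100 changes of 0.5 (log2) were called, and smaller ones were not simulated.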
